A study of Mus musculus with 45 samples.

Results

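Bone marrow-derived macrophages were compared after 24 h with interleukin-4 (IL-4), which drives the M2 state, and without stimulation (M0). All 15 M2 and all 15 M0 libraries of the study entered the comparison, 30 of the 45 libraries sequenced, and they were paired by mouse, so that each of 15 mice gave its own difference. A shared genotype and number in the labels was read as a shared mouse. The mice were C57BL/6N animals of 6 to 10 weeks that carried an engineered allele of *Famin* (listed as *Lacc1*), and each of the alleles p.254I, p.254V and p.284R was carried by 5 of them. These alleles are the mouse counterparts of the human non-risk, disease risk and monogenic disease variants, and no mouse without an engineered allele was used here. Marrow was cultured for 6 days with macrophage colony-stimulating factor (M-CSF), and the macrophages were then left unstimulated or given 20 ng/mL IL-4. A further 15 cultures of the same mice were polarized to M1 with interferon-γ and lipopolysaccharide. They are used for levels and a contrast beside the M0 and M2 values, for a fit of all 45 libraries, and in scaling the printed levels. The question was how the transcriptome as a whole responded to IL-4. Each library holds the polyadenylated RNA of a whole culture, so fewer cells of a type and less RNA per cell cannot be told apart.

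IL-4 is the cytokine of allergic and antihelminth immunity. On macrophages it binds the IL-4 receptor α chain with the common γ chain, the Janus kinases attached to them are activated, and the transcription factor STAT6 is phosphorylated and enters the nucleus. Its textbook targets include *Arg1* (arginase 1, which splits arginine to ornithine and urea), *Retnla* (the secreted resistin-like protein FIZZ1) and *Chil3* (the secreted chitinase-like protein YM1). *Ampd2*, which encodes an AMP deaminase of the purine nucleotide cycle, the pathway in which FAMIN acts, was taken as a further gene to follow. Macrophages treated in this way also fuse into giant cells, take up mannosylated proteins and rely on mitochondrial oxidation.

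STAT proteins bind palindromes with the arms TTC and GAA, and STAT6 is known to favour the longer spacer, TTCNNNNGAA, over the shorter TTCNNNGAA that other STAT proteins bind. The 250 bases before the RefSeq start sites (assembly GRCm38.p6) were searched for both, which read alike on either strand. The promoters of *Retnla*, *Chil3*, *Il31ra* and *Ampd2* are printed because they stand beside genes that were followed or rose most, as all 3 with a match among the genes looked up, shown in capitals, and 1 of those without, each on the strand of its gene.
*Retnla*, chr16:48842359-48842608, + strand: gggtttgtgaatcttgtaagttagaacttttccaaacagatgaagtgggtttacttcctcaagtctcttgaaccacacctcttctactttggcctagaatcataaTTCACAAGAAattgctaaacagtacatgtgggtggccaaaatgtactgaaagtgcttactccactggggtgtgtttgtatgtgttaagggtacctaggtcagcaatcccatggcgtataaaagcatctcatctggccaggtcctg
*Chil3*, chr3:106167565-106167814, - strand: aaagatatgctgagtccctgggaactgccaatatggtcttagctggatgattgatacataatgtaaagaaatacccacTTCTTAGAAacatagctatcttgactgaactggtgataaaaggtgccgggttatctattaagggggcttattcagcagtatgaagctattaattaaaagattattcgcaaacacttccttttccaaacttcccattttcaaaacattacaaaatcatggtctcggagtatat
*Il31ra*, chr13:112580663-112580912, - strand: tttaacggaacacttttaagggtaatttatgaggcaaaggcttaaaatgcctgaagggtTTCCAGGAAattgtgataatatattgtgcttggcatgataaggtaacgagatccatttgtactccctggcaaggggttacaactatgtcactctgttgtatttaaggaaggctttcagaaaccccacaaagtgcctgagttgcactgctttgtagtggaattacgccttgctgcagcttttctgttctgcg
*Ampd2*, chr3:108085403-108085652, - strand: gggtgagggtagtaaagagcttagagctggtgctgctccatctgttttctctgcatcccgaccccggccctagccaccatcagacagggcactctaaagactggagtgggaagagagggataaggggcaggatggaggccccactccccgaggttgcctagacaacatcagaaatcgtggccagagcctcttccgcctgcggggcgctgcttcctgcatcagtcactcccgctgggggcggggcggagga
The match in *Retnla* is of the longer form and begins at base -145 from the start site, and those in *Chil3* and *Il31ra* are of the shorter form and begin at bases -172 and -191. Among promoters of all genes tested, 4.77% of 12662 held the longer form (95% Wilson interval 4.41 to 5.16%) and 5.87% the shorter (5.47 to 6.29%). Among those of genes at least 2-fold higher in M2 the shares were 6.17% (4.68 to 8.09%) and 5.01% (3.69 to 6.78%) of 778 promoters, and among those at least 2-fold lower they were 4.46% (3.42 to 5.78%) and 6.39% (5.14 to 7.93%) of 1189. At 2-fold, the interval of each set of responding genes contained the share of all genes. Among genes at least 4-fold higher the shares were 6.67% for each form (4.36 to 10.1%), and among those at least 4-fold lower they were 6.2% for the longer (3.91 to 9.71%) and 9.12% for the shorter form (6.26 to 13.1%), the last with an interval above the share of all genes. The intervals treat promoters as separate, although promoters of the same gene can overlap, so they can be too narrow. The 274 promoters of genes at least 4-fold lower came from 221 genes, and shares per gene were not computed. Among 16 genes looked up, 11 had a promoter in the table and 3 of these held a match. The 8 without were *Ampd2*, *Rnase2a*, *Kcnd3*, *Mgl2*, *Ccl22*, *Flt1*, *Tuba8* and *Cish*. The first transcribed bases of the RefSeq starts of *Chil3* and *Ampd2* were found near the start of a GENCODE transcript of the gene, and those of *Retnla* and *Il31ra* were not. The start used for *Il31ra* lies inside the GENCODE gene, which runs from 112519898 to 112594360, and that of *Retnla* lies past the GENCODE start, so their matches are placed by RefSeq alone. *Arg1*, *Cdh1*, *Ocstamp*, *Scn3a* and *Socs2* are named without a promoter.

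The libraries held 19757185 to 43740283 counts, and the 30 separated by polarization along the first principal component, which carried 70.1% of the variance. The second carried 6.37% and followed the replicate number. Numbers 1 and 2 lay at -26.4 to -5.78 on it, number 3 at -5.06 to 9.42 and numbers 4 and 5 at 6.07 to 25.4. The sets of numbers 1 and 2 and of numbers 3 to 5 used below thus divide a gradual order. The M0 libraries of numbers 1 and 2 also held more mRNA of neutrophil granules, with 29.8 to 77.4 CPM of *Ngp* (neutrophilic granule protein) against 6.79 to 23.5 CPM in numbers 3 to 5, where CPM is each gene's count as a share of 1000000 counts after scaling of the library sizes by the trimmed mean of M-values (TMM). The labels do not say what the numbers mean. The M0 library of *Famin* p.254I replicate 4 stood apart by its interferon-stimulated genes, whose 35 members summed to 9350 CPM against 1380 to 3340 CPM in the other M0 libraries. The M2 library of the same mouse had the highest sum in M2, 2280 CPM against 839 to 1820 CPM in the other M2 libraries. The macrophage markers *Adgre1* (F4/80), *Csf1r* (the M-CSF receptor) and *Cd68* had at least 1269, 1937 and 1458 CPM in every M2 library and at least 2617, 2408 and 1781 CPM in every M0 library, and the 4 genes followed marked the libraries labelled M2 without exception. These 3 markers come from a longer list, of which *Fcgr1*, *Mertk* and *Lyz2* were at least 2-fold lower in M2 and *Spi1* was slightly higher, as given below.

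Most genes differed a little between M2 and M0, and a small part of them a great deal. Of 12671 genes tested, 10321 (81.5%) differed between M2 and M0 at an adjusted p under 0.05 (edgeR's quasi-likelihood test with the mouse as a block and Benjamini-Hochberg adjustment), 5051 higher in M2 (39.9%) and 5270 lower (41.6%). Of these, 61.6% had changed by less than 1.5-fold, and the median log2 fold change over all genes was -0.013. A change of at least 2-fold was found for 798 genes higher (6.3%) and 1245 genes lower in M2 (9.83%), and they went in the same direction in all 15 mice for 717 and 1045 of them. At the larger changes the balance turned towards rises. At least 4-fold changes numbered 314 higher and 306 lower, and at least 16-fold changes 96 higher and 15 lower. The M0 and M2 libraries did not overlap for 3010 genes (23.8%), and for 1166 of the 2043 genes changed at least 2-fold. Genes at least 2-fold higher went from a median of 1.93 CPM in M0 to 10.5 in M2, and those at least 2-fold lower from 4.27 to 1.29 CPM. Protein-coding genes made up 92.6% of the former, 90.5% of the latter and 93.6% of all genes tested. In what follows, the values after a gene are its mean CPM over the 15 M0 and the 15 M2 libraries and, in brackets, its log2 fold change in M2 against M0 ± its SE in the edgeR fit, and rose and fell are written only of genes called at an adjusted p under 0.05. Counts of risen and fallen members of a list stand beside the 39.9% of all genes that rose and the 41.6% that fell.

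**Figure D1:**
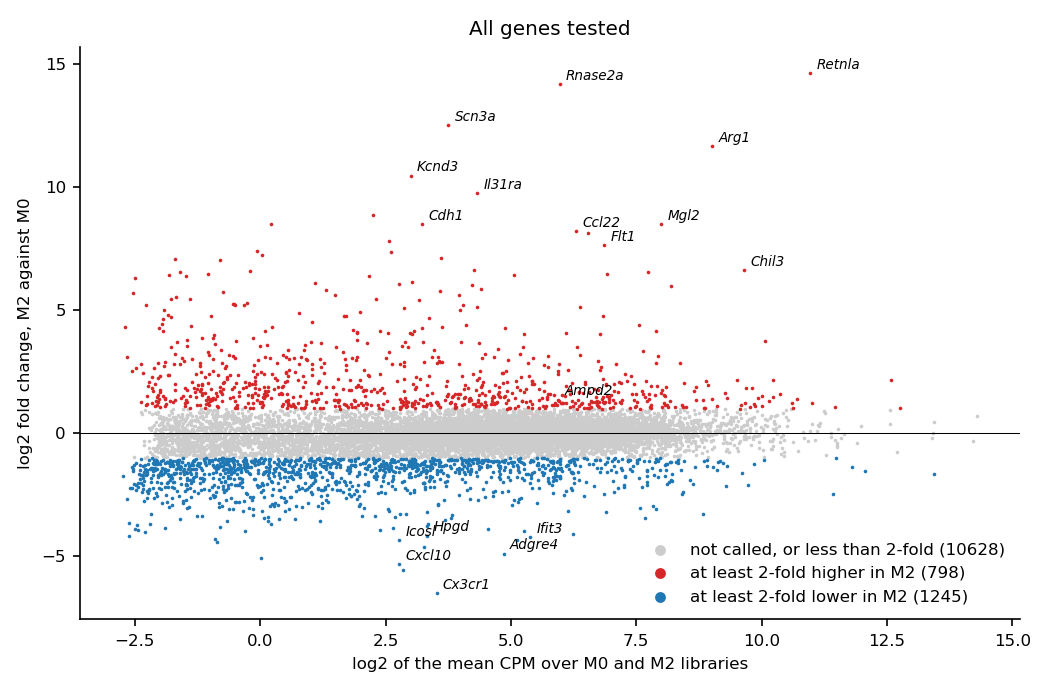
Each point is 1 of 12671 genes, placed by the log2 of its mean CPM over the M0 and M2 libraries (x axis) and by its log2 fold change in M2 against M0 (y axis), with the 798 genes at least 2-fold higher in red and the 1245 at least 2-fold lower in blue. The rises reach further from 0 than the falls, with *Retnla* at 14.63 and *Cx3cr1* at -6.49, and the fitted values of *Rnase2a*, *Scn3a* and *Kcnd3*, at or near 0 reads in M0, depend on the prior count.

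The 4 genes followed rose in all 15 mice, and in none did the M0 and M2 libraries overlap. *Retnla* (ENSMUSG00000061100, GRCm38 chromosome 16 from 48842551 to 48844461) had 0 CPM in the lowest, 0.0989 in the median and 0.578 in the highest M0 library, and 1272, 3279 and 9365 CPM in the same places among the M2 libraries. From being almost unread in M0 it came to hold between 0.129% and 0.908% of all counts of an M2 library. Its log2 fold change was 14.63 (SE 0.34, edgeR, adjusted p = 1.4e-20). *Arg1* (ENSMUSG00000019987, chromosome 10 from 24915221 to 24927484) went from 0.0391, 0.275 and 0.71 CPM in the lowest, median and highest M0 library to 703, 1020.1 and 1431 CPM in M2 (log2 fold change 11.66, SE 0.19, edgeR, adjusted p = 2.5e-21). The range of *Arg1* in M2 was far narrower than that of *Retnla*. *Chil3* (ENSMUSG00000040809, chromosome 3 from 106147554 to 106167564) was already read in M0, at 5.11, 13.9 and 44.4 CPM, and had 708, 1469 and 2652 CPM in M2 (log2 fold change 6.62, SE 0.24, edgeR, adjusted p = 5e-13). Its M0 level was higher in replicate numbers 1 and 2 (17 to 44.4 CPM) than in numbers 3 to 5 (5.11 to 16.3 CPM), as were the neutrophil granule mRNAs, and their part in it was not tested. The mean difference on the log2(CPM + 0.5) scale was 5.86 ± 0.87 (SD, n = 6 mice) in the former and 7.11 ± 0.85 (SD, n = 9 mice) in the latter. *Ampd2* (ENSMUSG00000027889, chromosome 3 from 108074062 to 108086651) showed the smallest of the 4 changes and the most even. It had 30.8, 34 and 39.9 CPM in the lowest, median and highest M0 library and 81.8, 87.9 and 95 CPM in M2, a log2 fold change of 1.37 (SE 0.029, edgeR, adjusted p = 4.2e-18). *Chil3* has the close copy *Chil4*, between which reads could be split, and *Ampd2* overlaps the gene model Gm12500 on the opposite strand, which limits how far their counts can be assigned.

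**Figure D2:**
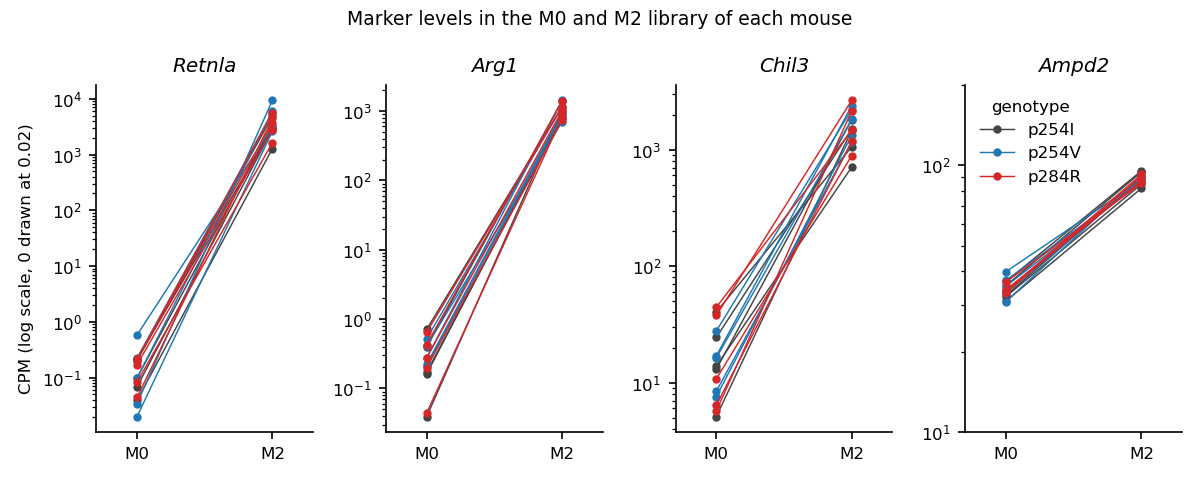
CPM (log axis, whose range differs between panels) of *Retnla*, *Arg1*, *Chil3* and *Ampd2* in the M0 and M2 library of each mouse, joined by a line and coloured by genotype, with a value of 0 drawn at 0.02. All 15 lines rise in each panel, and those of *Ampd2* run nearly in parallel, from 30.8 to 39.9 CPM in M0 to 81.8 to 95 CPM in M2.

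Beyond these, the genes that rose most were a secreted ribonuclease, ion channels, cytokine and growth factor receptors, a lectin and genes of cell adhesion and fusion. *Rnase2a*, of the eosinophil-associated ribonucleases, had 1 read in all M0 libraries together and 42.3, 119 and 219.7 CPM in the lowest, median and highest M2 library, a ratio of 53300 (95% counting interval 9570 to 2110000). *Scn3a*, a voltage-gated sodium channel subunit, had 0 reads in the 15 M0 libraries and 11.9, 22.9 and 56.9 CPM in M2, at least 251-fold higher when 3 reads are set as the floor of each M0 library. *Kcnd3*, a voltage-gated potassium channel subunit, had 3 reads in M0 and 8.94, 15.6 and 22.9 CPM in M2, a ratio of 2300 (95% counting interval 786 to 11100). These 3 genes were effectively silent without IL-4. *Il31ra*, a receptor chain for interleukin-31, rose from 0.0441 CPM in the median M0 library to 33.7, 40.1 and 45.2 CPM in the lowest, median and highest M2 library (log2 fold change 9.75, SE 0.3, edgeR, adjusted p = 3.7e-22). *Mgl2*, a galactose-binding C-type lectin, went from 1.43 to 511 CPM (8.5 ± 0.17). *Cdh1*, which encodes the adhesion molecule E-cadherin, went from 0.0485 to 18.8 CPM (8.48 ± 0.27), and *Ocstamp*, a membrane protein needed for the fusion of osteoclasts and giant cells, from 0.641 to 186 CPM (8.14 ± 0.19). *Ccl22*, a chemokine for T cells that bear CCR4, went from 0.5 to 157 CPM (8.2 ± 0.27), *Flt1*, a receptor for vascular endothelial growth factor, from 1.15 to 231 CPM (7.63 ± 0.12), and *Tuba8*, an α-tubulin, from 0.0513 to 11.8 CPM (7.79 ± 0.31). In each of these genes the M0 and M2 libraries did not overlap, which held for 23.8% of all genes. They were picked as the largest rises, and a rise in all 15 mice was a condition of the choice. *Ear2*, a close copy of *Rnase2a* in the same family, went from 0.588 to 30.8 CPM (5.61 ± 0.22), and reads could be split between such copies. *Scn3a* and *Kcnd3* overlap gene models on the opposite strand, and whether the counting used the strand is not stated.

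More genes went from near silence to a clear level than the reverse. A mean under 1 CPM in M0 and of at least 10 CPM in M2 was found for 31 genes, and the reverse for 6. The 31 included, with the genes above, 5 that were picked after their values were seen. *Edn1*, endothelin 1, went from 0.175 to 24.2 CPM (7.1 ± 0.19), *Car2*, carbonic anhydrase 2, from 0.517 to 36.7 CPM (6.03 ± 0.21), and *Mt3*, a metallothionein, from 0.216 to 16.2 CPM (6.15 ± 0.32). *Ltb4r1*, the high-affinity leukotriene B4 receptor, went from 0.881 to 15 CPM (4.08 ± 0.16), and *Rasgrp1*, an activator of RAS, from 0.888 to 17.8 CPM (4.29 ± 0.15). The 6 were *Cx3cr1*, *Ifit3b*, *Cxcl10*, *Ifit1bl1*, *Icosl* and *Rrad*.

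The list of IL-4 effector genes rose without exception. It was put together from textbook targets with earlier results of these data known, so that its direction is no independent evidence. Of 22 members tested, 22 rose and 0 fell, where 39.9% of all genes rose, and 20 rose at least 2-fold, with a median log2 fold change of 6.3. Of the members not yet described, *Ccl24* (eotaxin 2) went from 0.426 to 23.7 CPM (5.77 ± 0.13), *Pdcd1lg2* (the checkpoint ligand PD-L2) from 0.371 to 38.2 CPM (6.65 ± 0.14) and *Slc7a2* (the cationic amino acid transporter that brings in arginine) from 9.56 to 573 CPM (5.98 ± 0.13). *Itgax* (CD11c) and *Fn1* (fibronectin) were higher by 3.75 and 3.33 on the log2 scale. *Mrc1*, the mannose receptor used as an M2 surface marker, rose much less, from 753 to 1303 CPM (0.75 ± 0.092), its M0 and M2 libraries overlapped, and *Tgm2* (transglutaminase 2) rose least, from 135 to 162 CPM (0.28 ± 0.087), and was not called in replicate numbers 3 to 5 alone (edgeR, adjusted p = 0.24). *Ccl17*, a partner of *Ccl22*, had 1 read in all M0 libraries together and 0.245, 1.85 and 5.11 CPM in the lowest, median and highest M2 library. *Alox15* and *Ucp1* did not pass the filter on low counts, and *Ch25h* and *Ear11* are not analysed here.

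The receptor and the kinases that carry the IL-4 signal were not raised as a group, while most of its feedback inhibitors were. Among 16 genes of the IL-4 receptor and JAK-STAT signalling 4 rose and 10 fell, at a median of -0.22. The receptor chain *Il4ra* fell from 145 to 85.7 CPM (-0.74 ± 0.054), and *Il2rg*, the common γ chain, rose from 60.1 to 92.8 CPM (0.62 ± 0.086). *Stat6* itself differed little, from 317 to 291 CPM (-0.12 ± 0.024), and *Jak1* did not differ past the threshold, from 331 to 328 CPM (0.0015 ± 0.046), although it was called lower in replicate numbers 1 and 2 alone (-0.19) and higher in numbers 3 to 5 alone (0.12). *Jak2* was the member with the largest rise, from 55.5 to 137 CPM (1.3 ± 0.03), and *Il13ra1*, the chain of the alternative receptor, the largest fall, from 10.9 to 5.44 CPM (-1.04 ± 0.12). *Inpp5d*, the phosphatase SHIP1, fell from 326 to 184 CPM (-0.82 ± 0.036). Of the 8 suppressors of cytokine signalling, 5 rose and 1 fell. *Cish* rose from 0.769 to 66 CPM (6.41 ± 0.099), *Socs2* from 0.727 to 41.9 CPM (5.84 ± 0.12) and *Socs1* from 1.1 to 39 CPM (5.14 ± 0.14), and in these 3 the libraries did not overlap. *Socs3*, an inhibitor of signalling through gp130, fell from 1.71 to 1.12 CPM (-0.61 ± 0.15).

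Transcription factors tied to alternative activation rose in most cases. Of 16 tested, 12 rose, 9 of them at least 2-fold, and 3 fell, with a median of 1.51. *Irf4*, which is needed for M2 polarization, rose from 8.08 to 219.6 CPM (4.75 ± 0.073), and *Bhlhe40*, from 18 to 359 CPM (4.41 ± 0.14). *Klf4* and *Egr2*, zinc finger factors known as early responders to IL-4, rose from 10.8 to 96.5 CPM (3.14 ± 0.059) and from 52 to 435 CPM (3.13 ± 0.13). *Myc* rose from 17.6 to 67.6 CPM (2.01 ± 0.13) and *Pparg*, the fatty acid-sensing nuclear receptor, from 75.2 to 150.1 CPM (1.01 ± 0.056). *Bhlhe41*, the relative of *Bhlhe40*, went the other way, from 42.8 to 18.6 CPM (-1.21 ± 0.077), as did *Rxra*, the partner of nuclear receptors, from 124 to 69.2 CPM (-0.81 ± 0.08). Factors and receptors of macrophage identity were mixed, with 5 of 15 higher and 9 lower at a median of -0.46. *Maf*, a factor that restrains macrophage self-renewal, fell from 197 to 35.9 CPM (-2.47 ± 0.072), and *Irf8*, from 231 to 122 CPM (-0.91 ± 0.06). *Spi1*, the lineage factor PU.1, rose slightly, from 344 to 403 CPM (0.23 ± 0.045). *Cd14* and *Fcgr1*, surface receptors for lipopolysaccharide and immunoglobulin G, fell from 424 to 49.1 CPM (-3.07 ± 0.067) and from 404 to 53.1 CPM (-2.93 ± 0.06).

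Chemokines of the CC class rose and those of the CXC class fell. Of 12 CC chemokines tested 10 rose and 0 fell, and of 9 CXC chemokines 0 rose and 9 fell, a split by class that was counted after the values were seen. Over all 22 chemokines tested 11 rose and 9 fell, and 10 and 5 did so at least 2-fold. Among CC chemokines, besides *Ccl22*, *Ccl24* and *Ccl17*, *Ccl7* rose from 18.3 to 104 CPM (2.53 ± 0.15), *Ccl4* from 28.3 to 120.0 CPM (2.05 ± 0.17), and *Ccl9*, the most abundant of them, from 909.6 to 2409 CPM (1.4 ± 0.058). These attract monocytes, eosinophils and T cells. Among CXC chemokines, *Cxcl10*, the interferon-induced ligand of CXCR3, fell from 13.3 to 0.332 CPM (-5.29 ± 0.23), *Cxcl1*, a neutrophil attractant, from 1.17 to 0.096 CPM (-3.55 ± 0.37), *Cxcl2* from 4.16 to 0.977 CPM (-2.09 ± 0.2) and *Cxcl16* from 241 to 68.5 CPM (-1.79 ± 0.075). *Ccl5* did not differ past the threshold, from 45.4 to 26.5 CPM (-0.21 ± 0.17), but did without the mouse *Famin* p.254I replicate 2 (-0.33, edgeR, adjusted p = 0.0497). Receptors for chemokines and other attractants fell more often, with 6 of 17 higher and 10 lower, 7 of them at least 2-fold. *Cx3cr1*, the fractalkine receptor, fell furthest of all named genes, from 5.17, 20.6 and 50.3 CPM in the lowest, median and highest M0 library to 0, 0.19 and 0.607 CPM in M2 (log2 fold change -6.49, SE 0.14, edgeR, adjusted p = 1.8e-20). *Cxcr3* fell from 9.81 to 0.652 CPM (-3.93 ± 0.14), *S1pr1*, the sphingosine 1-phosphate receptor, from 126 to 14.5 CPM (-3.16 ± 0.087), *C5ar1*, the complement C5a receptor, from 571 to 117 CPM (-2.37 ± 0.096), and *Cxcr4* from 124 to 25 CPM (-2.29 ± 0.12). *Ccr1* rose from 63.8 to 192 CPM (1.56 ± 0.083). Cytokines and growth factors fell on balance, 14 of 20 against 4 that rose. *Il10* fell from 4.26 to 0.685 CPM (-2.71 ± 0.18), *Il1b* from 2.19 to 0.609 CPM (-1.79 ± 0.28) and *Il18* from 8.44 to 2.67 CPM (-1.68 ± 0.12), whereas *Pdgfa* rose from 11.5 to 42.5 CPM (1.86 ± 0.096) and *Csf1*, which encodes M-CSF itself, from 13.4 to 40.5 CPM (1.58 ± 0.083). *Igf1*, a growth factor of tissue repair, rose by less than 2-fold, from 1199 to 1759 CPM (0.55 ± 0.049).

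Genes of arginine uptake and splitting rose. In the list of arginine, proline and polyamine metabolism 12 of 19 rose and 5 fell. Beside *Arg1* and *Slc7a2*, *Ass1*, which makes argininosuccinate from citrulline, rose from 3.81 to 16.1 CPM (1.96 ± 0.19), and *Srm*, spermidine synthase, from 14.1 to 35.3 CPM (1.32 ± 0.1). *Odc1*, ornithine decarboxylase, rose by less than 2-fold, from 26.6 to 39.4 CPM (0.56 ± 0.1). *Nos2*, the inducible nitric oxide synthase that competes for arginine, was called higher but stayed at a trace, from 0.0316 to 0.286 CPM (3.11 ± 0.58), with a median of 19.8 CPM in M1. *Paox*, a polyamine oxidase, fell from 8.39 to 3.9 CPM (-1.12 ± 0.096). In the purine nucleotide cycle and purine salvage, 10 of 21 rose and 8 fell, where 39.9% of all genes rose and 41.6% fell. *Ampd2* rose while its relative *Ampd3* fell from 65.9 to 22.3 CPM (-1.58 ± 0.039), and *Adsl*, adenylosuccinate lyase, rose from 30.1 to 48.4 CPM (0.69 ± 0.046). *Adss*, adenylosuccinate synthase of this cycle, rose slightly, from 103 to 111 CPM (0.12 ± 0.038), with an adjusted p of 0.33 (edgeR) in replicate numbers 3 to 5 alone. The adenylate kinase *Ak1* rose from 8.78 to 48.8 CPM (2.46 ± 0.067), and *Gda*, guanine deaminase, from 23.3 to 190.1 CPM (2.94 ± 0.14). *Lacc1*, which encodes FAMIN, did not differ past the threshold, from 161 to 153 CPM (-0.11 ± 0.074).

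Genes of sterol synthesis rose together and most of those of sterol export fell. Of 23 genes of cholesterol synthesis and uptake, 22 rose and 1 fell, at a median of 0.83, and 8 rose at least 2-fold. *Mvd*, *Sqle* and *Cyp51*, enzymes of the pathway, rose from 7.66 to 23.2 CPM (1.59 ± 0.076), from 28.5 to 76.9 CPM (1.46 ± 0.081) and from 26.9 to 71.5 CPM (1.41 ± 0.068). Of 9 genes of cholesterol efflux 1 rose and 6 fell. *Abca1*, the exporter to apolipoprotein A-I, fell from 815 to 285 CPM (-1.47 ± 0.076) and *Apoe* from 5207 to 1955 CPM (-1.37 ± 0.09). *Mylip*, which the list also counts, is a ubiquitin ligase of lipoprotein uptake rather than export, and it fell from 91.7 to 21.6 CPM (-2.08 ± 0.069). *Abcg1*, an exporter to high-density lipoprotein, was the member that rose, from 273 to 529 CPM (0.96 ± 0.057). For fatty acid synthesis and desaturation 8 of 14 rose and 3 fell, and *Scd2*, a stearoyl-CoA desaturase, rose most, from 79.9 to 582 CPM (2.86 ± 0.085). For fatty acid uptake and oxidation 17 of 28 rose and 5 fell, none at least 2-fold in either direction. *Cd36*, the fatty acid transporter, rose from 4208 to 7944 CPM (0.93 ± 0.07), whereas *Cpt1a*, the enzyme that admits fatty acids to mitochondria, fell from 241 to 157 CPM (-0.61 ± 0.068), and *Fabp5*, a fatty acid carrier, from 292 to 146 CPM (-0.96 ± 0.083).

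Nuclear-encoded genes of mitochondria and ribosomes rose by small amounts but nearly without exception. Of 90 respiratory chain subunits and assembly factors, 86 rose and 3 fell at a median of 0.57. *Atp5b* and *Cyc1*, subunits of ATP synthase and of complex III, rose from 599.9 to 1278 CPM (1.09 ± 0.047) and from 62.3 to 127 CPM (1.03 ± 0.042). Of 77 mitochondrial ribosomal proteins 69 rose and 1 fell (median 0.38), and of 79 cytosolic ribosomal proteins 75 rose and 0 fell (median 0.41). Levels of the latter are uncertain, since their many processed pseudogenes share sequence with them and the treatment of reads that align to several places is not stated. In the TCA cycle 24 of 30 rose and 3 fell, with the enzymes *Idh3a* and *Mdh2* rising from 33.2 to 70.8 CPM (1.1 ± 0.064) and from 140.4 to 299 CPM (1.08 ± 0.059). *Acod1*, which makes itaconate, did not differ past the threshold, from 3.61 to 3.2 CPM (-0.22 ± 0.16), beside a median of 319 CPM in M1. In glycolysis 18 of 28 rose and 7 fell. *Hk2*, hexokinase 2, rose from 35.8 to 109 CPM (1.62 ± 0.061), *Pfkp*, the platelet form of phosphofructokinase, from 108 to 301 CPM (1.49 ± 0.063) and *Slc2a1*, the glucose transporter GLUT1, from 41.6 to 95.9 CPM (1.22 ± 0.097), while *Slc2a3* (GLUT3) fell from 11.8 to 3.77 CPM (-1.65 ± 0.073). Among 21 aminoacyl-tRNA synthetases 17 rose and 1 fell, and *Rars* rose most, from 68.5 to 180.4 CPM (1.4 ± 0.039). In UDP-GlcNAc and glutamine metabolism, which feeds protein glycosylation, 9 of 19 rose and 4 fell. *Slc1a5*, a glutamine transporter, rose from 45.6 to 143 CPM (1.67 ± 0.078) and *Glul*, glutamine synthetase, fell from 500.2 to 176 CPM (-1.48 ± 0.09).

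**Figure D3:**
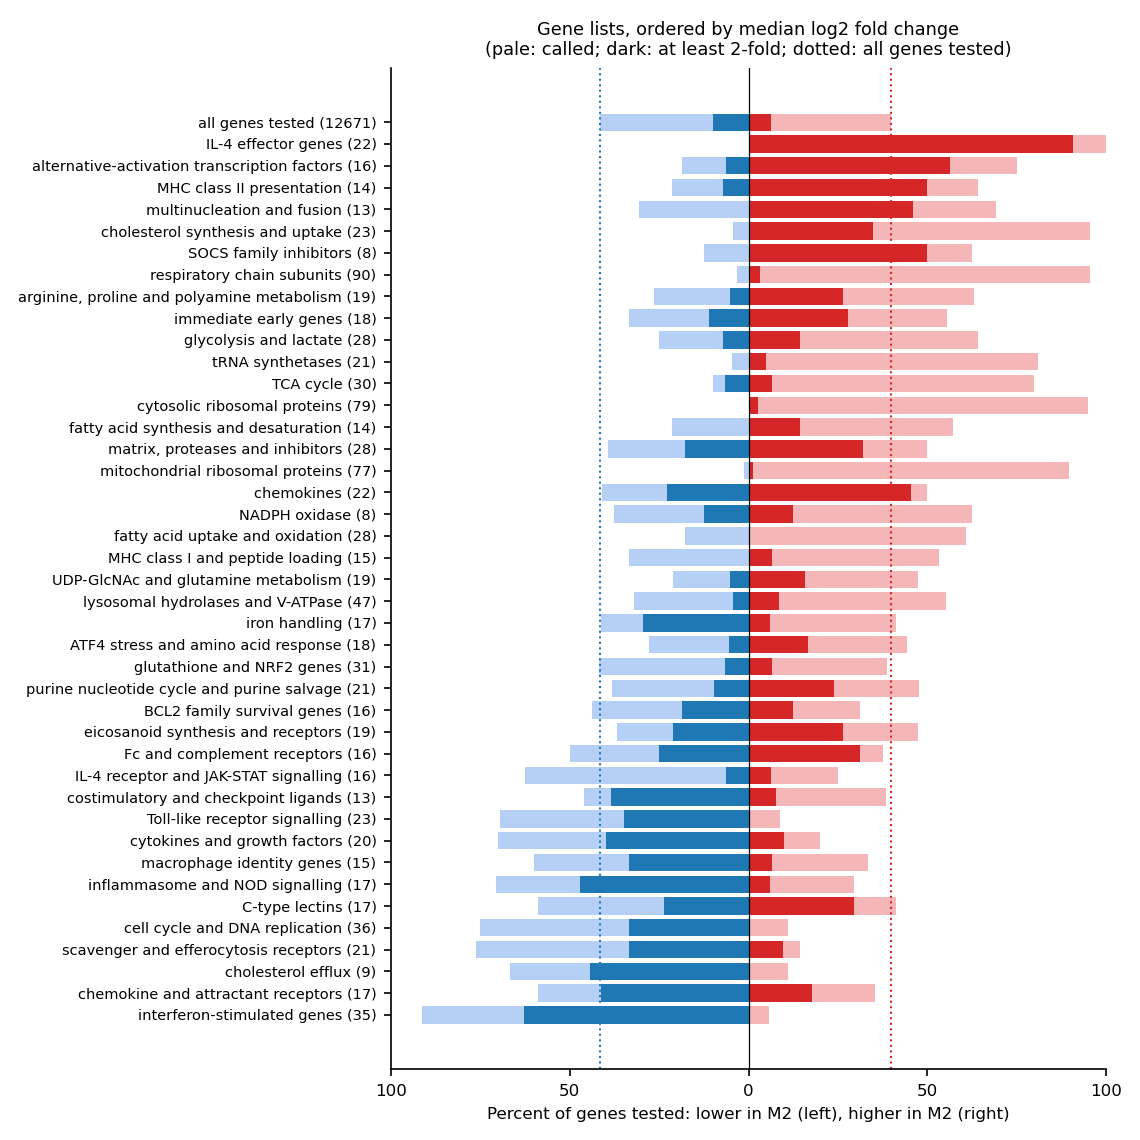
Percent of the tested genes of each list that were lower (left) or higher (right) in M2, with the part changed at least 2-fold in the darker shade, the number tested in brackets and the shares of all genes as dotted lines, lists being ordered by their median log2 fold change. The IL-4 effector genes extend to 22 of 22 on the right, and the interferon-stimulated genes reach 32 of 35 on the left.

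Interferon-stimulated genes fell in M2. Of 35 tested, 32 fell, 22 of them at least 2-fold, and 2 rose, where 41.6% of all genes fell, and the median was -1.29. *Ifit3*, an antiviral effector, had 20.2, 72.7 and 369 CPM in the lowest, median and highest M0 library and 1.54, 2.81 and 12.7 CPM in M2 (log2 fold change -4.21, SE 0.15, edgeR, adjusted p = 2.1e-14). Its libraries did not overlap, which held for 3 members of the list against 23.8% of all genes. *Ifit2* fell from 217 to 20.6 CPM (-3.18 ± 0.15) and *Irf7*, the factor that amplifies interferon production, from 249.7 to 56.1 CPM (-2.09 ± 0.1). *Ifit3b* and *Ifit1bl1*, close copies of their neighbours, fell from 14.1 to 0.278 CPM (-5.54 ± 0.27) and from 18.5 to 0.733 CPM (-4.6 ± 0.28). *Gbp2* and *Usp18* rose, from 67.9 to 113 CPM (0.85 ± 0.16) and from 29.3 to 36.8 CPM (0.45 ± 0.12), the latter no longer past the threshold without the mouse as a block (edgeR, adjusted p = 0.086). The *Famin* p.254I mouse 4, whose M0 library stood apart in these genes, did not decide the count. Without it 32 fell and 2 rose, at a median of -1.18. The summed level of the list was 839 to 2280 CPM in M2 and 1380 to 9350 CPM in M0, and it was lower in M2 in each of the 15 mice.

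Sensors of microbial products fell as well. Of 23 genes of Toll-like receptor signalling 16 fell and 2 rose, at a median of -0.41. *Tlr5*, *Tlr2* and *Tlr9*, which recognise flagellin, lipoproteins and unmethylated DNA, fell from 1.98 to 0.0565 CPM (-5.07 ± 0.4), from 62.1 to 9.77 CPM (-2.65 ± 0.078) and from 42.9 to 8.26 CPM (-2.34 ± 0.091). *Tlr4*, the receptor for lipopolysaccharide, rose slightly, from 158 to 176 CPM (0.15 ± 0.048), with an adjusted p of 0.06 (edgeR) in replicate numbers 1 and 2 alone, although its coreceptor *Cd14* fell. Of 17 inflammasome and NOD genes 12 fell and 5 rose. *Nlrp3* fell from 68.7 to 25.3 CPM (-1.45 ± 0.065) and *Nod2* from 8.58 to 3.08 CPM (-1.47 ± 0.089), while *Ripk2*, the kinase that carries the NOD2 signal, rose from 15.9 to 69.2 CPM (2.11 ± 0.049). Scavenger and efferocytosis receptors also moved down on balance, 16 of 21 against 3 up. *Stab1*, *Mertk* and *Gas6*, which take part in the uptake of dead cells, fell from 1367 to 328 CPM (-2.08 ± 0.1), from 191 to 74.5 CPM (-1.32 ± 0.081) and from 446 to 107 CPM (-2.06 ± 0.098), whereas *Olr1*, a receptor for oxidised lipoprotein, and *Itgb3*, the integrin β3 chain, rose from 0.229 to 6.35 CPM (4.77 ± 0.15) and from 16.5 to 149 CPM (3.19 ± 0.075). Among 17 C-type lectins 7 rose and 10 fell, where 39.9% of all genes rose and 41.6% fell. *Clec7a*, the β-glucan receptor dectin-1, rose from 642 to 1768 CPM (1.49 ± 0.059), and *Clec4e* and *Clec4d*, the receptors mincle and MCL for mycobacterial glycolipid, fell from 20.6 to 2.88 CPM (-2.89 ± 0.14) and from 581 to 104 CPM (-2.48 ± 0.072). Fc and complement receptors and components moved in both directions, with 6 of 16 higher and 8 lower, beside the same shares of all genes. *Fcgr4* fell from 121 to 31.1 CPM (-2.0 ± 0.14) beside *Fcgr1*, while *Fcgr2b*, the inhibitory receptor, rose from 201 to 360.4 CPM (1.06 ± 0.22). The rise of *Fcgr2b* was uneven, with a mean difference of 0.0656 ± 0.41 (SD, n = 6 mice) in replicate numbers 1 and 2 and 1.71 ± 0.59 (SD, n = 9 mice) in numbers 3 to 5 on the log2(CPM + 0.5) scale. Within the latter set the difference was 0.642 to 1.261 in number 3, 1.817 to 1.971 in number 4 and 2.246 to 2.317 in number 5. In a fit of numbers 1 and 2 alone *Fcgr2b* was not called (edgeR, adjusted p = 0.699).

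Other genes that fell furthest belong to several families. *Adgre4*, an adhesion G protein-coupled receptor of macrophages, had 17.2, 59.2 and 93.1 CPM in the lowest, median and highest M0 library and 0.52, 1.59 and 5.67 CPM in M2 (log2 fold change -4.88, SE 0.15, edgeR, adjusted p = 1.2e-15). *Icosl*, the ligand of the T cell costimulator ICOS, went from 13 to 0.633 CPM (-4.35 ± 0.11), *Gpr162*, an orphan receptor, from 66 to 3.25 CPM (-4.34 ± 0.075), and *Hpgd*, which degrades prostaglandins, from 19.1 to 1.06 CPM (-4.16 ± 0.17). *Ms4a6b*, a tetraspan membrane protein, went from 142 to 8.06 CPM (-4.09 ± 0.087), *Ctla2b*, a cysteine protease inhibitor, from 71.3 to 4.84 CPM (-3.97 ± 0.12), and *Adra1a*, an α1-adrenergic receptor, from 43.7 to 3.05 CPM (-3.89 ± 0.13). None of these genes, picked as the largest falls, overlapped between M0 and M2 libraries, and 23.8% of all genes did not overlap either. A fall in all 15 mice was a condition of the choice. *Cx3cr1*, *Cxcl10*, *Adgre4* and *Ms4a6b* overlap other genes on the opposite strand, and *Ms4a6b*, *Ctla2b* and the *Ifit* genes have close copies.

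Most genes of MHC class II presentation rose, and costimulatory ligands moved in both directions. Of 14 class II genes 9 rose, 7 at least 2-fold, and 3 fell. *Ciita*, the class II transactivator, rose from 13 to 60.8 CPM (2.27 ± 0.13), *Cd74*, the invariant chain, from 441 to 1954 CPM (2.16 ± 0.071), and *H2-Ab1* and *H2-Aa*, chains of the class II molecule, from 99.8 to 253 CPM (1.36 ± 0.11) and from 121 to 301 CPM (1.32 ± 0.094). The level of *Cd74* was higher still in M1, with a median of 8368 CPM. Of 15 genes of class I presentation and peptide loading 8 rose and 5 fell, by at least 2-fold in *Psmb10*, from 81.3 to 189 CPM (1.22 ± 0.055). Of 13 costimulatory and checkpoint ligands 5 rose and 6 fell, near the shares of all genes (39.9% and 41.6%). *Pdcd1lg2* rose most, and *Cd274*, which encodes PD-L1, rose by less than 2-fold, from 107 to 177 CPM (0.74 ± 0.057). *Cd86* fell from 21.5 to 11.1 CPM (-1.09 ± 0.14), and *Cd80* did not differ past the threshold, from 10.1 to 10.2 CPM (0.012 ± 0.058).

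Among the most abundant transcripts, those of a matrix protease, a lectin and lipid-handling proteins rose, and those of lysozyme and cathepsins fell. In absolute terms the largest rises in mean CPM were those of *Psap*, *Mmp12*, *Lgals3*, *Retnla* and *Cd36*. *Psap*, the precursor of the saposins that help to degrade sphingolipids, rose from 15530.0 to 24911 CPM (0.7 ± 0.043), *Mmp12*, the macrophage elastase, from 2242 to 10044 CPM (2.16 ± 0.12), and *Lgals3*, a galactose-binding lectin, from 4537 to 9340.5 CPM (1.05 ± 0.045). The libraries of *Psap* and *Mmp12* overlapped between M0 and M2, although every mouse rose in both. The largest falls were those of *Lyz2*, *Ctsb*, *Mpeg1*, *Selenop* and *Ctsd*. *Lyz2*, lysozyme M, fell from 16950.0 to 5323 CPM (-1.64 ± 0.071), *Ctsb*, cathepsin B, from 21111 to 16906 CPM (-0.32 ± 0.043), *Mpeg1*, the pore-forming perforin-2, from 6398 to 2196 CPM (-1.54 ± 0.054), *Selenop*, the selenium carrier, from 4679.6 to 805 CPM (-2.48 ± 0.16), and *Ctsd*, cathepsin D, from 8413 to 4912 CPM (-0.76 ± 0.061). The libraries of *Ctsb* overlapped between M0 and M2, although it fell in every mouse. *Ctsb*, *Mmp12* and *Selenop* overlap other genes on the opposite strand. Of 28 matrix genes, proteases and inhibitors 14 rose and 11 fell. *Timp1*, an inhibitor of matrix proteases, rose from 3.72 to 27.4 CPM (2.82 ± 0.18), and *Mmp13*, a collagenase, from 53.1 to 266 CPM (2.13 ± 0.15), while *Thbs1*, thrombospondin 1, fell from 374 to 33.5 CPM (-3.42 ± 0.1). Genes of multinucleation and cell fusion rose in 9 and fell in 4 of 13. With *Cdh1*, *Ocstamp* and *Itgb3*, *Dcstamp*, the relative of *Ocstamp*, rose from 29.8 to 191 CPM (2.68 ± 0.12) and *Atp6v0d2*, a proton pump subunit also named in fusion, from 547 to 1397 CPM (1.45 ± 0.12). Lysosomal hydrolases and proton pump subunits were mixed, with 26 of 47 higher, 15 lower and a median of 0.14.

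Proliferation genes were lower in M2. Of 36 genes of the cell cycle and DNA replication 27 fell, 12 at least 2-fold, and 4 rose. *Mki67*, the proliferation antigen Ki-67, fell from 87 to 32.4 CPM (-1.47 ± 0.089), *Ccnb2*, a mitotic cyclin, from 17.7 to 6.26 CPM (-1.54 ± 0.12) and *Tk1*, thymidine kinase, from 22.2 to 7.46 CPM (-1.57 ± 0.097). *Cdkn1a*, the cell cycle inhibitor p21, rose from 466 to 734 CPM (0.65 ± 0.041). The fall differed in size with the replicate number, at a median of -0.38 over the list in numbers 1 and 2 alone and of -0.79 in numbers 3 to 5 alone. Of 16 genes of the BCL2 family 5 rose and 7 fell, where 39.9% of all genes rose and 41.6% fell. *Bcl2* rose from 9.08 to 24.6 CPM (1.45 ± 0.11) and the pro-apoptotic *Bmf* fell from 41.9 to 7.85 CPM (-2.4 ± 0.091). Immediate early genes rose in 10 and fell in 6 of 18. *Dusp4*, a phosphatase of MAP kinases, rose from 20.8 to 119 CPM (2.56 ± 0.1), and *Fos* fell from 152 to 78.7 CPM (-0.85 ± 0.13).

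Several further lists moved in both directions, where 39.9% of all genes rose and 41.6% fell. In iron handling 7 of 17 rose and 7 fell. *Tfrc*, the transferrin receptor that takes iron in, rose from 269 to 1192 CPM (2.15 ± 0.095), and *Slc40a1*, ferroportin, which exports it, fell from 827 to 82 CPM (-3.29 ± 0.08). In eicosanoid synthesis and receptors 9 of 19 rose and 7 fell. *Ptgs1*, cyclooxygenase 1, rose from 59 to 234 CPM (2.03 ± 0.057) and *Ptgir*, the prostacyclin receptor, from 9.58 to 70.9 CPM (2.87 ± 0.12), whereas *Hpgds*, a prostaglandin D synthase, fell from 321 to 72.1 CPM (-2.18 ± 0.064). In the NADPH oxidase 5 of 8 rose and 3 fell, with *Cybb*, the catalytic subunit, falling from 1430.5 to 674 CPM (-1.08 ± 0.037) and *Hvcn1*, the proton channel, rising from 127 to 252 CPM (1.01 ± 0.058). Glutathione and NRF2 genes rose in 12 and fell in 13 of 31, with *Slc7a11*, the cystine carrier, rising from 6.01 to 35.7 CPM (2.51 ± 0.14). Of 18 genes of the ATF4 response to amino acid shortage 8 rose and 5 fell, with *Atf3* rising from 564 to 1169.6 CPM (1.06 ± 0.033) and *Asns*, asparagine synthetase, not past the threshold, from 15.8 to 16.5 CPM (0.13 ± 0.15).

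Markers of other cells that a marrow culture could hold were low, and some of them moved. The 11 neutrophil and granule genes tested summed to 56.5 to 396 CPM in M0 and 66.7 to 244 CPM in M2, 8 fell and 2 rose, and *Ly6g* did not pass the filter. *Ngp* fell from 31.9 to 8.33 CPM (-1.73 ± 0.15), and *Mmp8*, which macrophages also express, rose from 38.6 to 93 CPM (1.23 ± 0.091). Of the dendritic cell markers *Flt3* and *Xcr1* did not pass the filter, while *Zbtb46*, the factor of classical dendritic cells, rose from 0.617 to 8.1 CPM (3.67 ± 0.13), and the 3 genes tested summed to 0.683 to 1.98 CPM in M0 and 4.07 to 13.8 CPM in M2. Of the lymphocyte markers *Cd3e* and *Ncr1* did not pass the filter, and the 2 tested, *Cd4* and *Cd79b*, fell from 31.7 to 4.93 CPM (-2.65 ± 0.095) and from 8.78 to 3.07 CPM (-1.51 ± 0.084). The sums over the eosinophil list, 2.97 to 12.7 CPM in M0 and 5.86 to 16.3 in M2, the mast cell and basophil list, 1.09 to 2.95 and 1.63 to 4.95, and the stromal and endothelial list, 29.8 to 102 and 21.8 to 56.1, overlapped between M0 and M2. The sum over the lymphocyte list, 28.5 to 55.5 CPM in M0 against 4.86 to 10.1 in M2, was mostly *Cd4*, and that of the erythroid and megakaryocyte list, 209 to 311 against 83.8 to 185, was mostly *Pf4*. Their part in the gene groups above was not tested.

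The size of the response was then compared between the genotypes. No gene was called for a response that differed between genotypes (0 of 12671, 0.0%, edgeR's quasi-likelihood test of the interaction with Benjamini-Hochberg adjustment), 221 had an unadjusted p under 0.05, and limma-voom also called 0. For *Ampd2* the mean difference on the log2(CPM + 0.5) scale was 1.4 ± 0.032 in p.254I mice, 1.32 ± 0.16 in p.254V mice and 1.35 ± 0.092 in p.284R mice (SD, n = 5 mice each). For *Arg1* these differences were 10.42 ± 0.37, 10.24 ± 0.45 and 10.29 ± 0.28, and for *Retnla* 12.14 ± 0.59, 12.83 ± 0.98 and 12.34 ± 0.65. The M0 levels of these 2 genes were near or below 0.5 CPM, so their differences mostly follow the M2 level. For *Chil3* the differences were 6.26 ± 1.3, 6.9 ± 0.4 and 6.66 ± 1.3 in the same order. The interaction did not pass the threshold for *Ampd2*, *Arg1* and *Retnla* (edgeR, adjusted p = 1 in each), nor for *Chil3* (edgeR, unadjusted p = 0.53). How small a difference 5 mice of each genotype could show was not tested.

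The spread of the response between mice depended on the gene. Over the 2043 genes changed at least 2-fold, the SD of the difference between mice had a median of 0.355 on the log2(CPM + 0.5) scale, it was under 0.25 for 361 genes and over 1 for 9. Those 9, singled out after their values were seen, were *Ccl22*, *Syt7*, *Cav1*, *Mt3*, *Scin*, *Ifit1bl1*, *Car2*, *Chil3* and *Ifit3b*. *Ccl22* differed most, with an SD of 1.48, and its M2 level was 144 to 510 CPM in replicate numbers 1 and 2. In numbers 3 to 5 its M2 level was 16.4 to 43.3 CPM in 8 of 9 libraries and 364 CPM in that of *Famin* p.284R replicate 3. *Cav1*, caveolin 1, differed by 2.19 ± 0.69 (SD, n = 6) in the former and by 0.28 ± 0.69 (SD, n = 9) in the latter on the same scale. Within numbers 3 to 5 the mouse *Famin* p.284R replicate 3 had differences of 1.719 for *Cav1*, 4.284 for *Syt7* and 2.855 for *Scin*. Those of the other mice of numbers 3 to 5 ran from -0.799 to 0.824, from 1.101 to 1.684 and from 0.158 to 1.848. In fits of numbers 1 and 2 alone and of numbers 3 to 5 alone, which were added after the data had been seen, *Il1b* had log2 fold changes of -0.80 and -2.58, *Scin* of 3.7 and 1.35 and *Syt7* of 6.47 and 4.77. The differences between these numbers were not tested.

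**Figure D4:**
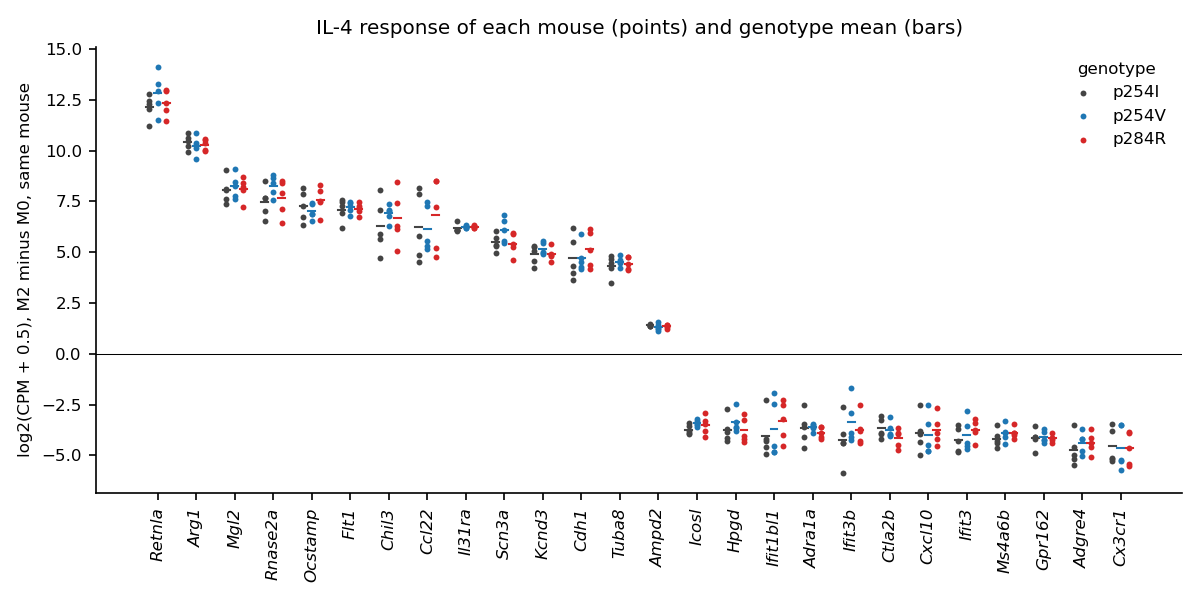
Difference in log2(CPM + 0.5) between the M2 and the M0 library of the same mouse (y axis) for the 4 genes followed and the genes that rose or fell most (x axis), each point being a mouse, coloured by genotype, and each bar a genotype mean of 5 mice. The genotype means of *Ampd2* lie at 1.4, 1.32 and 1.35, those of *Ifit3b* run from -4.24 to -3.37, and *Ccl22* and *Chil3* spread over the mice with SDs of 1.48 and 1.04. Where the level in a state is below 0.5 CPM, the pseudocount sets its term and the spread is mostly that of the other state.

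Beside the other polarization of the same mice, M2 and M1 libraries differed in 10589 of 12905 genes (82.1%, edgeR's quasi-likelihood test over all 45 libraries with the mouse as a block and Benjamini-Hochberg adjustment), 5367 higher and 5222 lower in M2. In the M2 against M1 contrast *Retnla* had a log2 fold change of 13.13, *Arg1* of 9.83, *Chil3* of 7.09 and *Ampd2* of 1.26. Their medians in M1 were 0.0396, 0.66, 9.83 and 36.7 CPM, so that none of the 4 stood in M1 near its M2 level. *Socs1* had a higher median in M1, 182 CPM, than in M2, 39.7 CPM, with a log2 fold change of -2.18 between them (edgeR, adjusted p = 1.3e-20). *Cx3cr1* was low in both, at a median of 0.304 CPM in M1 and 0.19 CPM in M2 (log2 fold change -0.58, edgeR, adjusted p = 0.054), and so was *Hpgd*, at 0.486 and 1.27 CPM. *Cxcl10*, *Ifit3* and *Icosl*, which fell in M2, had medians of 391, 427 and 23.7 CPM in M1 against 0.223, 2.81 and 0.63 CPM in M2. The M1 library of *Famin* p.254I replicate 5 held more of the IL-4 genes than the other 14 M1 libraries, with 49.2 CPM of *Retnla* against at most 0.249, and 40.9 CPM of *Arg1* against at most 0.911. Without it 10616 genes were called, and the log2 fold change of M2 against M1 was 15.75 for *Retnla*, 10.67 for *Arg1*, 7.3 for *Chil3* and 1.26 for *Ampd2*.

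**Figure D5:**
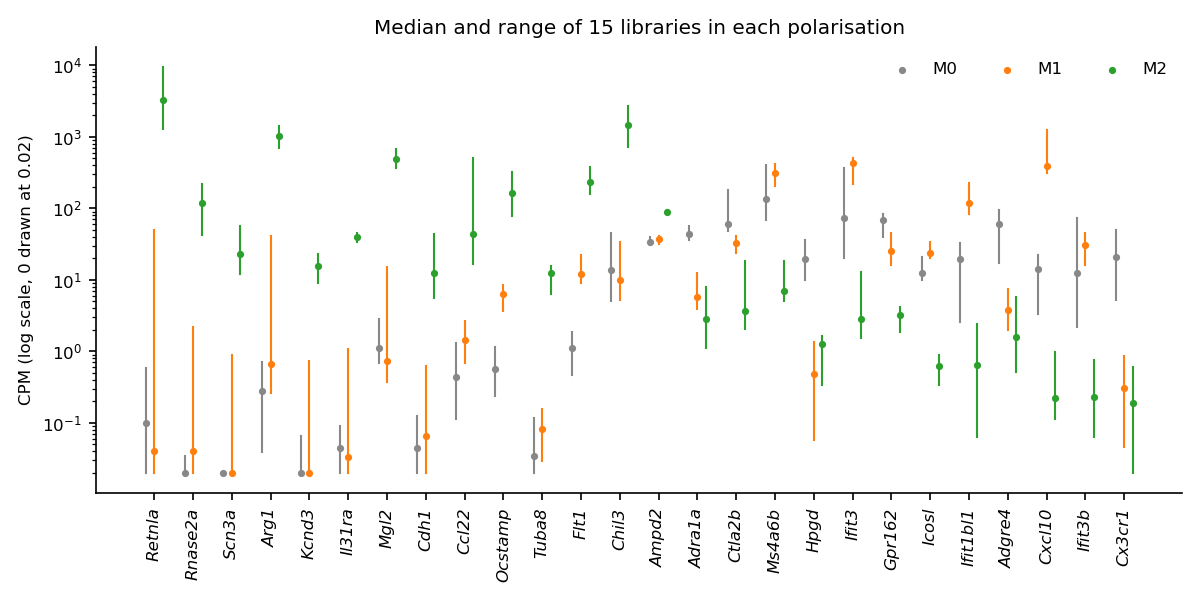
Median (point) and range (line) of 15 libraries in CPM (log axis, 0 drawn at 0.02) for M0, M1 and M2, for the 4 genes followed and those that rose or fell most, ordered by log2 fold change in M2 against M0. The M2 ranges of the rising genes lie above the M0 ranges, the upper ends of the M1 ranges of *Retnla* and *Arg1* come from 1 library, and *Cxcl10* and *Ifit3* run in opposite directions in M1 and M2.

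The libraries themselves differed little between the states. The 10 most abundant genes held 11.64% ± 1.15 of the counts in M0 and 11.45% ± 0.684 in M2 (SD, n = 15 mice, two-sided exact permutation test within mice, p = 0.41). The number of genes with at least 1 CPM was 11100 ± 38.8 in M0 and 10950 ± 51.4 in M2, lower in M2 in 15 of 15 mice (same exact test, p = 6.1e-05, the smallest that 15 pairs can give).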

How the data were processed

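RNA of 45 macrophage cultures was sequenced as stranded, single-end, polyadenylated libraries. The deposited table holds raw read counts per Ensembl gene, which the authors made from reads aligned to mm10 with HISAT2 according to the methods and the labels, whereas the series' design text names STAR. The counting tool, its annotation, its use of strand and its treatment of reads that align to several places are not given in the sources used here. A second deposited table, of CPM (counts scaled to 1000000 per library), is these counts rescaled and was not used. Per the file headers every column names its sample, and library totals of the 30 libraries were 19757185 to 43740283, for which intervals cover counting error only.

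Of 29307 gene IDs, 29146 were matched to GENCODE M21 (GRCm38). The table holds 0 mitochondrially encoded genes, so their share could not be computed. Counts were filtered with filterByExpr, scaled by TMM (factors 0.926 to 1.07) and fitted with edgeR 4.0.16 (R 4.3.3) by the quasi-likelihood test with the mouse as a block, 14 residual degrees of freedom and Benjamini-Hochberg adjustment over 12671 genes. The deviations of M0 and M2 libraries of the same genotype and number from their group means correlated at r of 0.144 to 0.623 over 9467 genes in 15 of 15 mice, and the number is taken from the labels. Changes common to a replicate number would also give such a correlation, so it cannot tell a shared mouse from a shared number. The response between genotypes was tested as an interaction, and M2 against M1 in a fit of all 45 libraries. Differences per mouse were taken on log2(CPM + 0.5). Steps were tested on simulated data. Genes at or near 0 reads in M0 are given as a ratio of reads with an exact 95% counting interval, or against a floor of 3 reads per library. Promoters came from RefSeq (GRCm38.p6). Alternatives were no replicate block, a block by number, all 45 libraries, DESeq2 1.42.0 size factors and Wald test, limma-voom (limma 3.58.1), other filters, a fold test against 2-fold, a 4-fold change for promoters, and leaving out each mouse.

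Genes named were the 4 followed, the 12 with the largest rise and the 12 with the largest fall that had a mean of at least 10 CPM in the higher state, the same direction in 15 mice and no model name, up to 4 risen and 4 fallen members of each list (all members of lists of at most 20) with members not called, and the 5 largest rises and falls in CPM. The members and lists were chosen with earlier results of these data known. *Adsl*, *Adss*, *Ccl4*, *Ccl9*, *Ear2*, *Irf7*, *Mrc1*, *Tgm2* and the genes named as switched on or as variable between mice fall outside this rule and were chosen after their values were seen.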

Additional observations from a re-analysis of the deposited data

Results flagged for a closer look

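Among 129 groups of 5 values examined for a value far from the rest, 7 held such a value, and chance gives about 1 in 20. The mouse *Famin* p.254I replicate 5 gave 4 of them, all as the difference M2 minus M0 on the log2(CPM + 0.5) scale within its genotype. Its *Psap* difference of 0.92 was the highest, its *Mmp12* difference of 1.96 the lowest, and its falls in *Mpeg1* (-1.21) and *Ifit1bl1* (-2.26) were the smallest. The largest *Mmp12* difference of all 15 mice, 3.82, was not among the 7. It was that of *Famin* p.284R replicate 3, which went from 1133 CPM in M0 to 16040 CPM in M2. In the mouse *Famin* p.254I replicate 3 the *Il31ra* difference of 6.51 was the highest of its genotype. The M0 library of *Famin* p.254I replicate 4 held 9350 CPM of interferon-stimulated genes in sum, far above the other 4 M0 libraries of its genotype. The M0 library of *Famin* p.254V replicate 2 had 11038 genes of at least 1 CPM, the lowest of its genotype.

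The M1 library of *Famin* p.254I replicate 5, a state outside the main comparison, held 49.2 CPM of *Retnla*, where the highest of the other 14 M1 libraries had 0.249, and 40.9 CPM of *Arg1*, where the highest had 0.911. It lay above all other M1 libraries in 11 of 14 genes that rose in M2, and within their range in *Ampd2*, *Ccl22* and *Ocstamp*. In the 11 genes the levels of this library were 1.52 to 12.9% of those in the M2 library of the same mouse. Over all 14 they were 1.52 to 40.4%, the upper end being *Ampd2*, with a median of 3.69%.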

How the results depend on the processing

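The numbers of genes called and of genes changed at least 2-fold stayed within 1.5 times the reported ones under every alternative run, with 9236 to 11000 genes called. A fold test against 2-fold (glmTreat) called 623 genes higher and 859 lower, against 798 and 1245 by the estimate. Without the replicate block 9680 genes were called, and with a block by replicate number only 10256, and 2027 and 2034 of the 2043 genes changed at least 2-fold were shared with the reported set. Without the block *Usp18* was no longer called (edgeR, adjusted p = 0.086), and no other named gene gained or lost a call. Leaving out each mouse gave 10192 to 10314 called genes. Subsets added after seeing the data, replicate numbers 1 and 2 alone and numbers 3 to 5 alone, gave 9745 and 9327, with 1851 and 1783 of the 2043 genes shared. In numbers 1 and 2 alone *Fcgr2b* and *Tlr4* lost their calls and *Acod1* (-0.46), *Asns* (0.45) and *Jak1* (-0.19) gained one, and in numbers 3 to 5 alone *Adss*, *Cav1* and *Tgm2* lost theirs and *Ccl5* (-0.49) and *Jak1* (0.12) gained one. Numbers 1 and 2 alone also moved *Ass1* (2.67), *Ccl4* (2.8), *Cxcl1* (-2.87), *Fos* (-0.20), *Mgl2* (7.9), *Nos2* (4.23) and *Tlr5* (-4.36) by over 1.5-fold, as did numbers 3 to 5 alone *Ccl22* (7.48). The fitted values of *Scn3a*, *Rnase2a* and *Kcnd3*, which depend on the prior count, moved by 4.01, 2.98 and 1.84-fold under limma-voom. The fit of all 45 libraries gave 15.8 for *Retnla*. The median log2 fold change ran from -0.0567 without a filter to -0.00426 with a mean of at least 1 CPM. The interaction with genotype called 0 genes under every alternative run, with 172 to 454 genes at an unadjusted p under 0.05 when a mouse was left out and 52 without the block. M2 against M1 called 10211 genes without the block. At a 4-fold change, 6.2% of the promoters of genes lower in M2 held TTCNNNNGAA and 9.12% TTCNNNGAA (6.26 to 13.1%, above the 5.87% of all genes), and the cause was not tested. That interval treats promoters of the same gene as separate and can be too narrow. The signs of the list medians of glutathione and NRF2 genes, eosinophil markers, eicosanoids, iron handling and ATF4 genes changed with the setting. Single reads decide genes at or near 0 in M0, and reads of close copies or opposite strands may be counted for their neighbours.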
